A study of Homo sapiens with 6 samples.

Results

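The genes described here are 10 long non-coding RNAs (lncRNAs) known from work on glioma and other tumors: MIR17HG, MIR22HG and MIR31HG, which carry microRNAs, and MALAT1, NEAT1, PVT1, CRNDE, H19, MEG3 and LINC-PINT. They were listed by symbol and make up 10 of the 59074 genes of the expression table. RNA was sequenced from 3 established human glioblastoma cell lines, LN-229 (LNT229 in the sample titles), T98G and U251. Each line was transfected with a siPOOL, a pool of many small interfering RNAs against one transcript, and harvested 72 h later. The siHOTAIRM1 cells received a siPOOL against the lncRNA HOTAIRM1 and the siControl cells a non-target siPOOL, so that every library comes from transfected cells. There is 1 library per cell line and siPOOL, 6 in all. The cell lines therefore serve as the replicates of the knock-down, and the spread between separate cultures of 1 line cannot be seen. Levels are given as CPM, read counts scaled to the sequencing depth of each library, and changes as differences of log2(CPM + 1).

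LncRNAs are transcripts that do not code for proteins. Some stay in the nucleus and organize it: NEAT1 is the scaffold of paraspeckles, and MALAT1 gathers in nuclear speckles beside splicing factors. Others are host genes whose primary transcript is cut by Drosha and Dicer into microRNAs, short RNAs that pair through their seed with messenger RNAs and lower their output. MIR17HG, a target of MYC and E2F factors, carries the oncogenic miR-17/92 cluster, whereas H19 and MEG3 are imprinted genes expressed from the maternal allele.

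The mature microRNAs show what the host transcripts encode, since the table itself measures only the longer RNA. They are given here 5′ to 3′ from RefSeq (GRCh38.p14), with the seed, bases 2 to 8, in capitals, for the arms that are best known. MIR17HG carries 6 precursors with 12 mature microRNAs, which lie in an intron of its canonical transcript and in exons of another of its transcripts. The main arms fall into 4 seeds, of which miR-17-5p and miR-20a-5p share one and miR-19a-3p and miR-19b-3p share another:
hsa-miR-17-5p: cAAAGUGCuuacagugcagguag
hsa-miR-20a-5p: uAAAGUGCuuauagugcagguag
hsa-miR-18a-5p: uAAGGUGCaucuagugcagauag
hsa-miR-19a-3p: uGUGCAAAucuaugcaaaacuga
hsa-miR-19b-3p: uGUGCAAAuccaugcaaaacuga
hsa-miR-92a-3p: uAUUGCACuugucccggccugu
The other hosts carry fewer. MiR-22 lies in an exon of the canonical MIR22HG transcript, miR-31 in an intron of MIR31HG, miR-675 in an exon of an H19 transcript other than the canonical one, and miR-770 likewise in MEG3. The span of LINC-PINT covers miR-29a and miR-29b-1, whose main arms share the seed that gives the miR-29 family its targets:
hsa-miR-22-3p: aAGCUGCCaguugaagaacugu
hsa-miR-31-5p: aGGCAAGAugcuggcauagcu
hsa-miR-675-5p: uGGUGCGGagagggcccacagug
hsa-miR-770-5p: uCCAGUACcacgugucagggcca
hsa-miR-29a-3p: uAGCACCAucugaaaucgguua
hsa-miR-29b-3p: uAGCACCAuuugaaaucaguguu
Of 11 hairpin symbols searched, 8 had a row of their own, and 0 of these rows were above the added constant in any library. The data therefore speak of the host transcripts and not of the microRNAs.

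Each library held 52.25 to 103.9 M reads, so that 3 reads corresponded to 0.0289 to 0.0574 CPM. The targeted HOTAIRM1 was at 1.99 CPM with siControl and 0.952 CPM with siHOTAIRM1 in LN-229, at 3.49 and 2.15 CPM in T98G, and at 1.27 and 0.623 CPM in U251. It was lower in all 3 lines, by 0.54 on average (log2, SE 0.12, limma adjusted p = 0.01457). Its direction was the same under the 11 alternatives that tested it (it is below the filter of 5 CPM), but its adjusted p was 0.1698 with median centring and 0.1758 with rescaling, in a range from 0.003016 to 1 over those alternatives. Of the glioma markers, VIM and CD44 were high in every library (254 to 1794 and 304 to 819 CPM), GFAP reached 20.8 to 42.5 CPM in U251 and at most 0.317 CPM elsewhere, and SOX2 was at most 0.0146 CPM in T98G. NES was at most 0.956 CPM and S100B listed at 0 in T98G, and OLIG2 was at most 1.69 CPM in any library. The leukocyte markers PTPRC and CD3E were at most 0.087 CPM. Of the epithelial markers CDH1 was at most 0.0139 CPM and EPCAM at most 0.248 CPM, but KRT18 was at 55.4 to 93.9 CPM in LN-229 and T98G and 3.42 to 4.75 CPM in U251. Of the neuronal markers SYT1 reached 20.9 CPM and SNAP25 8.46 CPM, with RBFOX3 at most 0.00998 CPM. The fibroblast marker PDGFRB was at 185.5 and 188.3 CPM in T98G and at most 9.68 CPM in the other lines, with DCN, LUM and COL1A1 at most 3.52 CPM. The endothelial markers PECAM1 and CDH5 were at most 2.83 CPM. The siControl library of U251 stood apart, with 18.4% of its listed CPM on non-polyadenylated RNAs such as 7SL against 8.15 to 11.9% in the other 5 libraries. Over the 14294 tested genes, the median change was 0.01 in LN-229 cells, -0.19 in T98G cells and -0.03 in U251 cells, so changes in T98G are also given relative to that median.

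Of the 10 lncRNAs, 8 passed the filter, a mean level of 1 CPM or more, and MIR31HG and H19 did not. None of the 8 passed the threshold for the knock-down (limma, 0 at an adjusted p under 0.05 and 0 at an unadjusted p under 0.05), where 2.0% of all tested genes were called in either direction and 0.413% were called higher. MALAT1 and NEAT1 were higher with siHOTAIRM1 in all 3 lines, as were 11.4% of all tested genes. MIR17HG was lower in all 3 lines, as were 28.1% of all tested genes. Relative to the median of each line, MALAT1, NEAT1 and PVT1 were above it in all 3 lines (23.0% of all tested genes) and none was below it in all 3 (22.5% of all tested genes). Between the cell lines, 8 of 8 passed for T98G against LN-229, where 54.9% of all tested genes did. For U251 against LN-229 it was 4 of 8 (60.6% of all tested genes), and for T98G against U251 also 4 of 8 (64.2% of all tested genes).

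**Figure D1:**
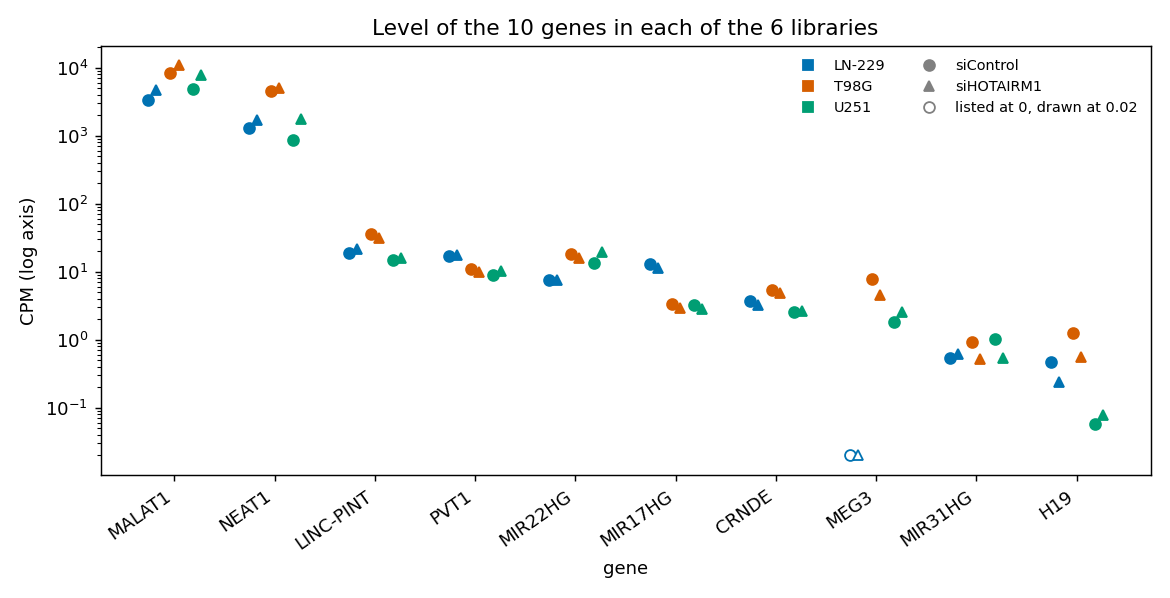
CPM of the 10 genes (log axis) in each library, colored by cell line, with circles for siControl and triangles for siHOTAIRM1. MALAT1 and NEAT1 lie highest in T98G, MIR17HG stands highest in LN-229, and MEG3 was listed at 0 in both LN-229 libraries (open symbols, drawn at 0.02).

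Per kilobase of the canonical transcript, the levels spanned more than 3 orders of magnitude. MALAT1 averaged 640 CPM per kb (range over the libraries 323 to 1040) and NEAT1 112 CPM per kb (38.1 to 224). LINC-PINT followed at 15.1 CPM per kb, MIR17HG at 8.2, PVT1 at 5.05, MIR22HG at 4.76, MEG3 at 4.41 and CRNDE at 4.05 CPM per kb. MIR31HG and H19 were lowest, at 0.407 and 0.397 CPM per kb. The CPM of a gene covers all its isoforms, but only the canonical length was used (22.7 kb for NEAT1, 0.747 kb for MIR17HG). The values and their order depend on that choice. By mean CPM, MIR17HG (6.12) was below PVT1 (12.3) and MIR22HG (13.7). Together the 10 genes took 0.865 to 3.74% of the listed CPM, most of it MALAT1 (0.718 to 2.53%).

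MALAT1 (hg38 chromosome 11, 65497640 to 65508073, plus strand, 1 exon in the canonical transcript) had the highest CPM of the 10 in every library. Its level with siControl and siHOTAIRM1 was 3374 and 4686 CPM in LN-229. The T98G libraries were at 8287 and 10855 CPM. The U251 libraries were at 4907 and 7963 CPM. In each line the siHOTAIRM1 library was thus the higher one, by 38.9% for LN-229, 31% for T98G and 62.3% for U251, and the 2 siPOOL groups overlapped because the lines differ in level. Since the reads came from whole cultures, a change in the number of cells that express a gene and a change in RNA per cell cannot be told apart. The mean change was 0.52 ± 0.16 (SD, n = 3 lines) on the log2 scale. In the fit over all genes its SE was 0.36, the 95% interval ran from -0.21 to 1.25 and the limma adjusted p was 0.4471. An exact sign-flip permutation test over 3 lines gives p = 0.25, the smallest it allows.

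NEAT1 (chromosome 11, 65422774 to 65445540, plus strand) lies upstream of MALAT1 in the same orientation, and its short and long isoforms share 1 row of the table. It was at 1308 CPM with siControl and 1720 CPM with siHOTAIRM1 in LN-229. T98G gave 4548 and 5105 CPM. U251 gave 866.6 and 1742 CPM. The siHOTAIRM1 library was higher by 31.5% for LN-229, 12.2% for T98G and 101% for U251, where the siControl value was the lowest of all 6. The mean change was 0.52 ± 0.43 (SD, n = 3 lines), with an SE of 0.27, a 95% interval from -0.03 to 1.08 and a limma adjusted p of 0.3031. Without U251 the change of NEAT1 was 0.28, and that of MALAT1 0.43.

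Ordered from the most positive change, NEAT1 and MALAT1 ranked 70th and 71st of the 14294 tested genes. Among the 787 genes that averaged 100 CPM or more they ranked 8th and 9th, and the median of those genes was 0.01 for LN-229, -0.33 for T98G and -0.10 for U251. The 1606 tested genes with a canonical transcript of at least 7 kb had median changes of 0.01, -0.09 and 0.08 in the same order of lines. The 3318 with one under 2 kb had 0.02, -0.27 and -0.21, and all 12336 with a known length had 0.01, -0.20 and -0.03. The part of transcript length in the changes of MALAT1 and NEAT1 was not tested. Relative to the median of all genes, the change of MALAT1 was 0.46, 0.58 and 0.73 in these lines and that of NEAT1 0.38, 0.36 and 1.03. When the libraries were rescaled to their summed listed CPM without the non-polyadenylated RNAs, the changes of MALAT1 were 0.45, 0.61 and 0.85. Those of NEAT1 were 0.37, 0.38 and 1.16. This rescaling also takes out differences in the listed share of the CPM scale (42.9 to 67.2% over the libraries). The parts of the listed share and of the non-polyadenylated RNAs were not separated. The U251 siControl library with its high share of non-polyadenylated RNA was the control of the largest change of both genes, and the part of that share in the result was not tested.

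**Figure D2:**
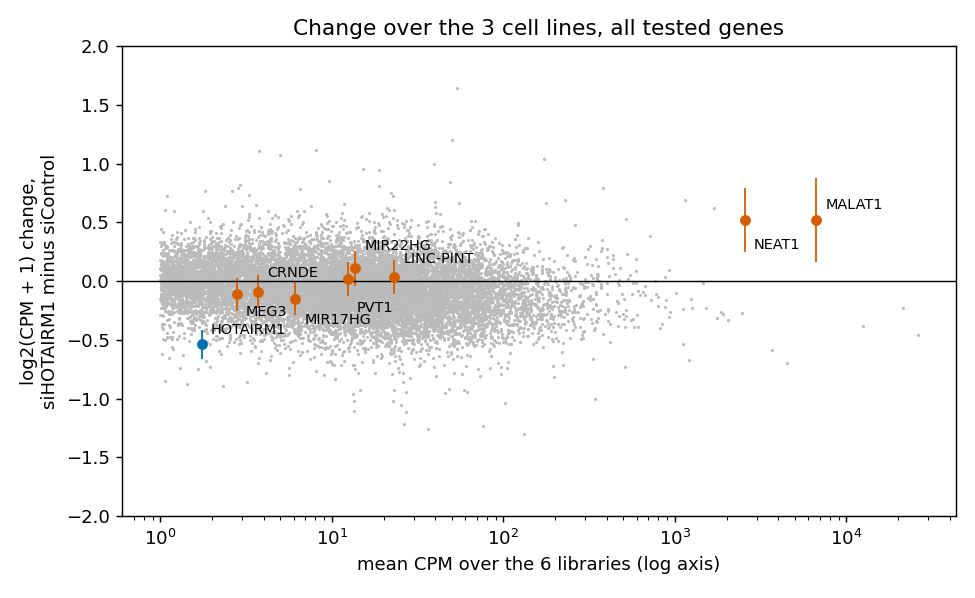
Log2(CPM + 1) change over the 3 cell lines against the mean CPM (log axis) for the 14294 tested genes (grey), with the 8 tested lncRNAs in orange and HOTAIRM1 in blue, error bars being the SE of limma. NEAT1 and MALAT1 lie at 0.52, at the right of the plot, and the other 6 lie between -0.15 and 0.11.

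Genes for proteins that share a compartment with these lncRNAs were compared next, at the level of RNA and not of protein. Of 37 tested genes for paraspeckle proteins 0 passed the threshold and 27 were higher, with a median change of 0.07 against -0.07 over all genes. By line their median was 0.06 for LN-229, -0.09 for T98G and 0.27 for U251, whose siControl library stood apart. All tested genes had medians of 0.01, -0.19 and -0.03 in that order. Of the 37, only 6 were higher in all 3 lines and 4 were lower in all 3 (11.4% and 28.1% of all tested genes). ZC3H6, a zinc finger protein, had the largest value (0.44, adjusted p = 0.09953), and NONO, a core paraspeckle protein, had 0.28 (adjusted p = 0.3858). TAF15 (0.33, adjusted p = 0.2269) and FAM98A (-0.23, adjusted p = 0.4019), both RNA-binding proteins, did not pass either. Of 21 genes for nuclear speckle proteins 0 passed and 13 were higher, with a median of 0.04 (0.03 for LN-229, -0.15 for T98G and 0.26 for U251). Of the 21, 6 were higher in all 3 lines and 2 were lower in all 3. SRRM2, a scaffold of speckles, was at 131.7 and 154.1 CPM in LN-229, 183.4 and 221.4 CPM in T98G and 127.9 and 153.4 CPM in U251, a difference of 0.25 (adjusted p = 0.4014). The splicing-related SRSF11 (0.31), PNN (0.27) and SRRM1 (0.24) had adjusted p of 0.2957, 0.3783 and 0.3689.

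MIR17HG (chromosome 13, 91347686 to 91397592, plus strand) was at 13.0 CPM with siControl and 11.3 CPM with siHOTAIRM1 in LN-229. T98G had 3.37 and 2.94 CPM. U251 had 3.22 and 2.88 CPM. Both LN-229 libraries lay above the 4 others, and in each line the siHOTAIRM1 library was slightly lower. The change was -0.15 ± 0.03 (SD, n = 3 lines), with a 95% interval from -0.44 to 0.13 in the fit over all genes (adjusted p = 0.5946), and relative to the median of T98G it was 0.04 there. Between lines, MIR17HG was lower in T98G than in LN-229 by 1.66 (log2, SE 0.17, adjusted p = 2.01e-10) and lower in U251 than in LN-229 by 1.70 (adjusted p = 1.149e-10). T98G and U251 did not pass (0.04, 95% interval -0.31 to 0.39).

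MYC and E2F1 are known activators of MIR17HG, and whether they or MYCN account for its level in LN-229 was not tested. MYC was at 20.4 and 18.4 CPM in LN-229, 19.7 and 15.2 CPM in T98G and 7.56 and 9.08 CPM in U251, and E2F1 ranged from 18.7 to 34.4 CPM over all libraries. MYCN was at 6.74 and 12.6 CPM in LN-229 and at most 0.594 CPM in the other 2 lines. Of the 11 MYC and E2F family genes tested, which include MCM7, the host of the related miR-106b cluster, 0 passed the knock-down threshold, with E2F3 (0.30) and MNT (0.30) having the largest changes (adjusted p = 0.2514 and 0.2426). MXD1 (-0.18) and MCM7 (-0.22) had adjusted p of 0.5141 and 0.4814. Of 18 described targets of the miR-17 family 0 passed as well, with 9 higher and 9 lower. TGFBR2, a TGF-beta receptor, had the largest value (-0.48, adjusted p = 0.09651), with 52.6 and 42.7 CPM in LN-229, 59 and 54.4 CPM in T98G and 101.8 and 49.4 CPM in U251. HIPK3 (0.32), APP (0.30) and MAP3K9 (0.30) had adjusted p of 0.2321, 0.3959 and 0.2902. Of the 18 targets, 6 were lower and 2 higher in all 3 lines, where 28.1% and 11.4% of all tested genes were. CDKN1A, a cell cycle inhibitor and 1 of the 6, was at 18.3 and 15.2 CPM in LN-229 (-0.26 over the lines, limma adjusted p = 0.3411).

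MIR22HG (chromosome 17, 1711447 to 1717174, minus strand), the host of a microRNA often described as tumor suppressive, was at 7.43 and 7.46 CPM in LN-229 with siControl and siHOTAIRM1. The T98G libraries were at 18.1 and 16.1 CPM. The U251 libraries were at 13.6 and 19.5 CPM. The LN-229 libraries were the lowest, and the siPOOL pairs went different ways in T98G and U251. The change over the lines was 0.11 ± 0.34 (SD, n = 3 lines, limma adjusted p = 0.7375). MIR22HG was higher than in LN-229 by 1.1 in T98G (SE 0.18, adjusted p = 3.959e-06) and by 1.03 in U251 (adjusted p = 9.061e-06), while T98G minus U251 gave 0.06 (95% interval -0.31 to 0.43). The gene overlaps WDR81 on the opposite strand (up to 12.2 CPM), and since the library kit does not mark strand, reads from the overlap cannot be told apart.

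MIR31HG (chromosome 9, 21380073 to 21559891, minus strand) was near the limit of the filter in every library. It was at 0.544 and 0.625 CPM in LN-229, which were 48 and 65 reads. In T98G it was at 0.927 and 0.523 CPM, or 64 and 38 reads. In U251 it was at 1.03 and 0.534 CPM, or 54 reads in both libraries at different depths. It was thus lower with siHOTAIRM1 in T98G and U251 but not in LN-229, with counting intervals of the log2 ratio from -1.41 to -0.25 in T98G, -1.50 to -0.41 in U251 and -0.34 to 0.74 in LN-229. In a fit without the filter the change was -0.22 (adjusted p = 0.6809).

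Around MIR31HG, the cell lines differed in the genes toward the CDKN2A locus, which codes for cell cycle inhibitors and is often lost in glioblastoma. CDKN2B was listed at 0 in all 4 libraries of LN-229 and U251 and was at 8.04 and 4.28 CPM in T98G. CDKN2A was likewise listed at 0 in LN-229 and U251 and at 0.159 and 0.179 CPM in T98G. CDKN2B-AS1, the antisense lncRNA of that locus, was at 3.45 and 3.29 CPM in LN-229, at 1.87 and 1.57 CPM in T98G and listed at 0 in U251. MTAP, which lies between MIR31HG and CDKN2A, was detected in every library (16.7 to 106.6 CPM), as was MIR31HG itself. IFNE, an interferon gene inside the MIR31HG span on the same strand, was at 0.781 to 1.93 CPM.

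H19 (chromosome 11, 1995166 to 2004552, minus strand), a fetal growth-related lncRNA, was at 0.465 CPM with siControl and 0.241 CPM with siHOTAIRM1 in LN-229. In T98G it was at 1.25 and 0.55 CPM, or 86 and 40 reads. In U251 it was at 0.0575 and 0.0791 CPM, from 3 and 8 reads. It was lower with siHOTAIRM1 in LN-229 (-48.2%, log2 ratio -0.95 with a counting interval from -1.67 to -0.23) and in T98G (-55.8%, log2 ratio -1.18, from -1.72 to -0.64). In U251 the log2 ratio was 0.46 (from -1.45 to 2.38). These intervals cover counting error only, and in the fit without the filter the change was -0.25 (limma adjusted p = 0.6691).

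IGF2, the paternally expressed neighbor of H19 and a growth factor, was at 4.55 and 5.67 CPM in T98G and at most 0.0114 CPM in LN-229, and it was listed at 0 in U251. T98G was thus the line with the highest level of both genes, although H19 was lower and IGF2 higher with siHOTAIRM1 there. Of the 12 tested genes of the IGF2 axis and of imprinted genes related to it, 0 passed the threshold. PLAGL1, an imprinted zinc finger gene, was at 2.32 and 7.11 CPM in U251 and at most 0.0578 CPM in the other lines. MEST, another imprinted gene, was at 50.5 and 25.8 CPM in U251, 17.5 and 14.1 CPM in T98G and at most 0.0114 CPM in LN-229. IGF1R, the receptor of IGF2, had a difference of 0.27 (adjusted p = 0.3166), PLAGL1 of 0.44 (adjusted p = 0.1126), MEST of -0.41 (adjusted p = 0.1487) and GRB10 of -0.25 (adjusted p = 0.364).

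MEG3 (chromosome 14, 100779410 to 100861031, plus strand), an imprinted lncRNA described as a tumor suppressor, was the one gene of the 10 listed at 0 in a whole line. It was at 0 in both LN-229 libraries. Genes that every cell uses, such as those of the mitochondrial genome, were also listed at 0, so that only the listing can be given. In T98G it was at 7.83 CPM with siControl and 4.54 CPM with siHOTAIRM1, which were 541 and 330 reads. In U251 it was at 1.82 and 2.55 CPM, or 95 and 258 reads. The siPOOL pairs went opposite ways, -42.1% in T98G and 40.2% in U251, with counting intervals of the log2 ratio from -0.99 to -0.59 and from 0.15 to 0.83. Over the lines, with LN-229 listed at 0 in the fit, the change was -0.11 (limma adjusted p = 0.7145). MEG3 was higher in T98G than in U251 by 1.14 (SE 0.18, adjusted p = 8.003e-07), and its calls against LN-229 rest on the listing at 0 and are given without a fold.

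The other transcripts of the MEG3 domain were scarce. MEG8, a lncRNA downstream of MEG3, was at 0.42 and 0.261 CPM in T98G, 0.0957 and 0.178 CPM in U251 and at most 0.00972 CPM in LN-229, the same order of lines as MEG3. DLK1, the paternally expressed gene of the domain, reached at most 0.00972 CPM, and DIO3 was listed at 0 in all 6 libraries. RTL1 was at 0.136 and 0.0771 CPM in LN-229 and at most 0.0276 CPM elsewhere.

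PVT1 (hg38 chromosome 8, 127794526 to 128187101, plus strand), the neighbor of MYC and often gained with it in tumors, was at 16.8 and 17.4 CPM in LN-229. T98G gave 11.1 and 9.76 CPM. U251 gave 8.84 and 10.1 CPM. Both LN-229 libraries lay above the 4 others. PVT1 was lower than in LN-229 by 0.66 in T98G (SE 0.18, adjusted p = 0.001814) and by 0.79 in U251 (adjusted p = 0.0002223), and T98G minus U251 gave 0.13 (95% interval -0.23 to 0.49). The knock-down change was 0.02 ± 0.18 (SD, n = 3 lines, limma adjusted p = 0.9681). It was negative in T98G (-0.17) but 0.02 relative to the median of that line. MYC, given above, was at 15.2 to 19.7 CPM in T98G and 18.4 to 20.4 CPM in LN-229.

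CRNDE (chromosome 16, 54845189 to 54929189, minus strand), a lncRNA raised in colorectal tumors and gliomas, was at 3.67 and 3.2 CPM in LN-229. T98G had 5.47 and 4.83 CPM. U251 had 2.53 and 2.62 CPM. The 3 lines did not overlap, in the order T98G, LN-229, U251. CRNDE was higher in T98G than in U251 by 0.78 (SE 0.17, adjusted p = 0.0001253) and than in LN-229 by 0.47 (adjusted p = 0.01714), while U251 against LN-229 did not pass (-0.31, 95% interval -0.65 to 0.03). The knock-down change was -0.09 ± 0.11 (SD, n = 3 lines, limma adjusted p = 0.7721). IRX5, its neighbor in a head-to-head arrangement, followed the same order of lines, at 1.14 and 0.996 CPM in T98G, 0.525 and 0.504 CPM in LN-229 and 0.386 and 0.357 CPM in U251. The neighbors IRX3, FTO and RPGRIP1L did not follow it. IRX3 was at 1.91 to 2.835 CPM over all libraries, and FTO was highest in U251 (68.2 and 71.2 CPM). RPGRIP1L was lowest in LN-229 (11.7 and 10.4 CPM).

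LINC-PINT (chromosome 7, 130791264 to 131110176, minus strand), a p53-induced lncRNA that interacts with polycomb repressive complex 2, was at 18.8 and 21.9 CPM in LN-229. The T98G libraries were at 36.1 and 31 CPM. The U251 libraries were at 15 and 16.2 CPM. The T98G libraries were the highest, and the 3 lines did not overlap. LINC-PINT was higher in T98G than in LN-229 by 0.70 (SE 0.17, adjusted p = 0.001038) and than in U251 by 1.06 (adjusted p = 3.033e-06), while U251 against LN-229 did not pass (-0.36, adjusted p = 0.07423). The knock-down change was 0.03 ± 0.22 (SD, n = 3 lines, limma adjusted p = 0.9347), and in T98G it was -0.21, or -0.02 relative to the median. MKLN1, which overlaps LINC-PINT on the opposite strand, was also highest in T98G, at 141.5 and 120.2 CPM against 62.2 to 91 CPM in the other lines. Without strand, reads from the overlap of both genes cannot be told apart. Of 11 tested genes of the polycomb complex and its partners 0 passed the knock-down threshold, with MTF2 (0.30, adjusted p = 0.2479), JARID2 (0.26, adjusted p = 0.3484), EZH1 (0.24, adjusted p = 0.3849) and AEBP2 (0.15, adjusted p = 0.6185) having the largest values.

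**Figure D3:**
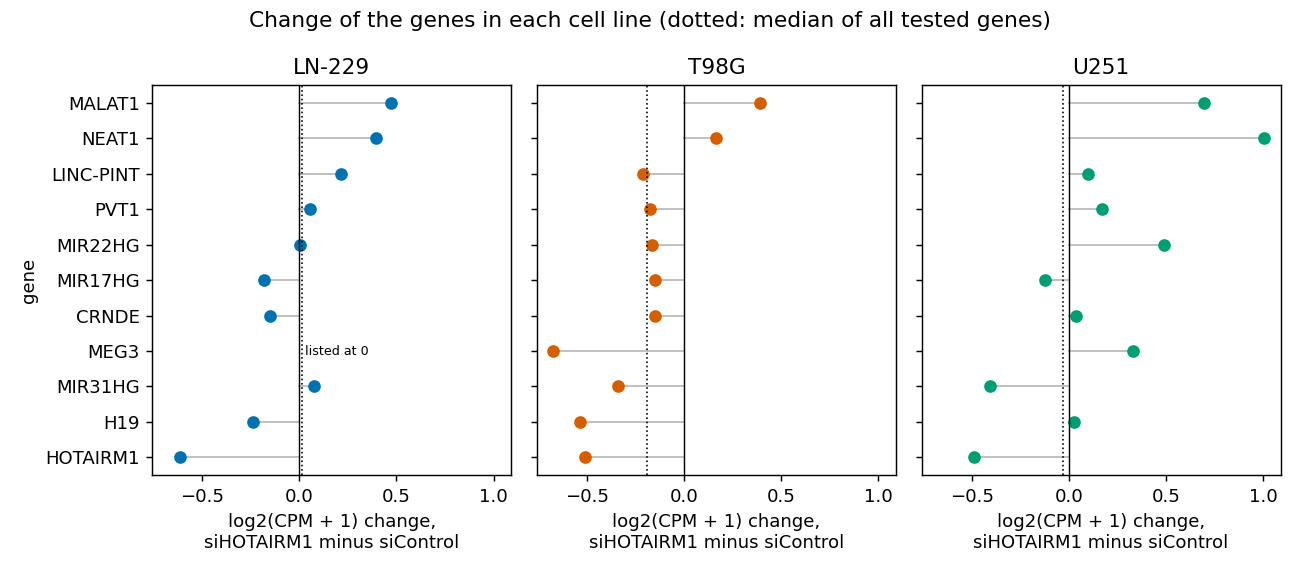
Log2(CPM + 1) change, siHOTAIRM1 minus siControl, of the 10 genes and HOTAIRM1 in each cell line, 1 pair of libraries per line, with the median of all tested genes as a dotted line. MALAT1 and NEAT1 lie right of 0 in all 3 lines, and in T98G LINC-PINT, PVT1, MIR22HG, MIR17HG and CRNDE lie within 0.04 of the median of -0.19.

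Between the lines, the genes fell into several orders. MIR17HG and PVT1 were highest in LN-229, with T98G and U251 not told apart. MIR22HG was lowest in LN-229, again with T98G and U251 not told apart. NEAT1, CRNDE and LINC-PINT were higher in T98G than in both other lines. NEAT1 exceeded LN-229 by 1.68 (SE 0.33, adjusted p = 6.026e-05) and U251 by 1.97 (adjusted p = 4.408e-06), and U251 against LN-229 gave -0.29 (95% interval -0.97 to 0.39). MALAT1 was higher in T98G than in LN-229 by 1.25 (SE 0.44, adjusted p = 0.01564), while U251 lay between them and did not pass against either (0.65 over LN-229, adjusted p = 0.2009, and 0.60 below T98G, adjusted p = 0.2332). Each line enters with 2 libraries that differ in the siPOOL, so the tests rest on the spread between these 2 libraries after a common siPOOL term. Without any 1 library of LN-229 or T98G, MALAT1 and CRNDE no longer passed for T98G against LN-229. With the libraries centred on their medians or rescaled without non-polyadenylated RNA, T98G against U251 passed for 6 of 8, MALAT1 and PVT1 being added, and U251 against LN-229 also for 6 of 8, CRNDE and LINC-PINT being added. With no variance trend, MALAT1 passed in both of these comparisons, which made 5 of 8 in each.

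**Figure D4:**
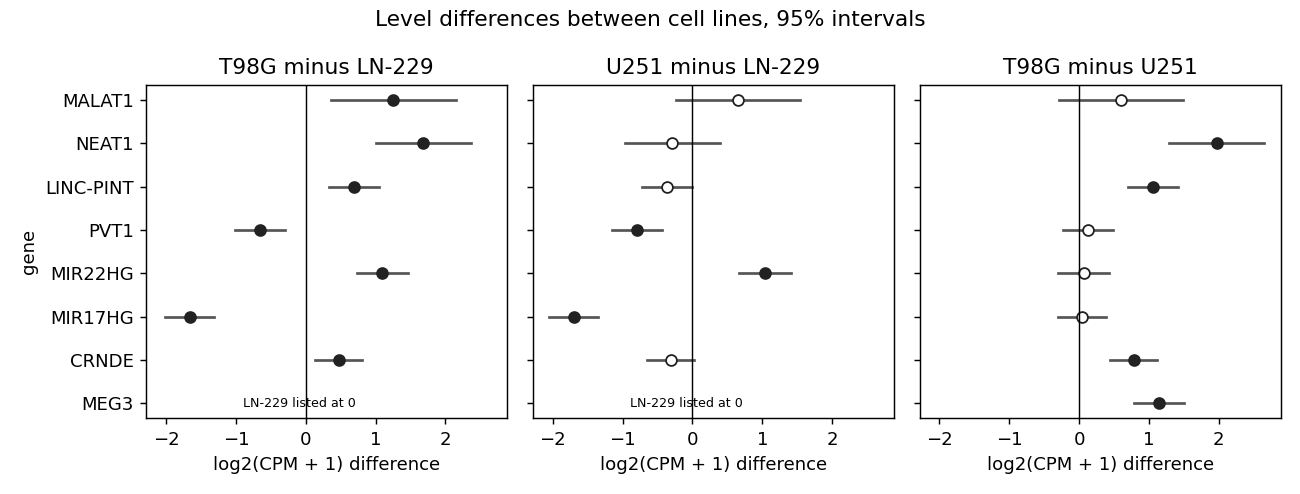
Differences in log2(CPM + 1) between cell lines for the 8 tested genes with their 95% intervals from limma, filled where the adjusted p was under 0.05. MIR17HG and PVT1 lie left of 0 for both comparisons with LN-229, NEAT1 lies furthest right for T98G against U251 (1.97), and MEG3 is shown for T98G against U251 alone because LN-229 was listed at 0.

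Other host genes of microRNAs were examined in the same way. Of 34 rows, 11 were listed at 0 in all libraries and 10 were tested. Of these 0 passed the threshold, 8 were higher with siHOTAIRM1 and 5 were higher in all 3 lines, where 11.4% of all tested genes were. Their median change was 0.15 for LN-229, 0.13 for T98G, 0.27 for U251 and 0.21 over the lines against -0.07 for all genes. MIR210HG, the host of the hypoxia-induced miR-210, was at 0.589 and 0.818 CPM in LN-229, 3.08 and 3.62 CPM in T98G and 2.26 and 5.2 CPM in U251 (0.43, adjusted p = 0.09237). MIR600HG also had 0.43 (adjusted p = 0.09786), with 4.38 and 7.83 CPM in U251. MIRLET7BHG, the host of let-7b, had 0.26 (adjusted p = 0.3341) and MIR181A1HG by 0.24 (adjusted p = 0.3799). None of the 10 was lower in all 3 lines, as MIR17HG and 28.1% of all tested genes were. MIR4458HG in LN-229 and MIR4697HG in U251 were listed at 0 and could not be lower there. Relative to the median of T98G, the change of MIR17HG was 0.04 in that line.

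**Figure D5:**
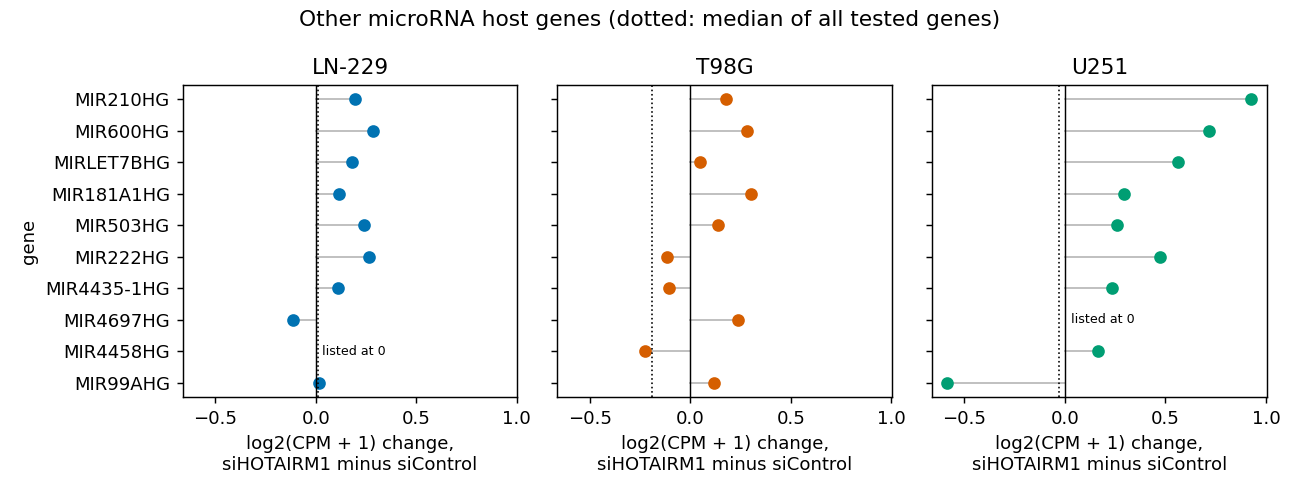
Log2(CPM + 1) change, siHOTAIRM1 minus siControl, of the 10 other tested microRNA host genes in each cell line, with the median of all tested genes as a dotted line. MIR210HG, MIR600HG, MIRLET7BHG, MIR181A1HG and MIR503HG lie right of 0 in all 3 lines, and MIR99AHG lies left of 0 in U251 alone (-0.59).

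Among 24 other tested cancer lncRNAs, 2 passed the knock-down threshold (2.0% of all tested genes did), with a median change of -0.06 against -0.07 over all genes. SNHG16, a host gene of small nucleolar RNAs, rose from 159.4 to 260.1 CPM in LN-229 and from 47.4 to 64.1 CPM in T98G. In U251 it rose from 187.6 to 344.3 CPM, and its change over the lines was 0.67 (SE 0.16, limma adjusted p = 0.02023). TP53TG1, a p53-induced lncRNA, fell from 1.2 to 1.03 CPM in LN-229, from 11.8 to 7.56 CPM in T98G and from 4.71 to 1.85 CPM in U251 (-0.57, SE 0.15, adjusted p = 0.03744). With the rescaled libraries neither passed (adjusted p = 0.06976 for SNHG16 and 0.225 for TP53TG1), and the adjusted p ran from 0.003299 to 1 over 12 alternatives for SNHG16 and from 0.01221 to 1 over the 11 that tested TP53TG1. OIP5-AS1 and SNHG8 had changes of -0.35 and -0.38 (adjusted p = 0.1944 and 0.1722). Of 30 tested genome neighbors of the 10 genes 0 passed, MEST, given above, having the largest value, followed by RPGRIP1L near CRNDE (-0.30, adjusted p = 0.2505), MRPL23 near H19 (-0.27, adjusted p = 0.3279) and CDKN2B near MIR31HG (-0.26, adjusted p = 0.2844).

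Over the 6 libraries, the tested genes whose log2(CPM + 1) followed each lncRNA most closely were taken as a description. For MALAT1 they were MBD6 (Pearson r = 0.9939) and TIA1 (0.9879), the loosest match of the 8. For NEAT1 they were PINK1-AS (0.9982) and SMG6 (0.9971), for MIR17HG HDHD2 (0.9997) and LINC01419 (0.9988), and for MIR22HG RANBP10 (0.9987) and ZFP62 (0.9986). PVT1 was followed by TEP1 (0.9984) and TGFBR1 (0.9974), CRNDE by CYP4V2 (0.9994) and FOXJ2 (0.9971), MEG3 by ZFAND5 (0.9997) and STAT5B (0.9985), and LINC-PINT by RALY (0.9989) and PTGS2 (0.9984). The 6 points share 3 cell lines, and each pair of genes was taken from the 14294 tested.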

How the data were processed

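RNA-seq of 6 libraries (LN-229, T98G and U251, each with siControl and siHOTAIRM1) was analysed. The authors prepared libraries from 500 ng of total RNA (TruSeq RNA v2, 101 cycles), used STAR 2.4.1d and Bowtie 2 2.2.5 on hg38, and took levels from Ensembl release 84 models by expectation maximization in Partek Flow. The deposited values are CPM of 59074 genes with 0.0001 added. They sum to 42.9 to 67.2% of the CPM scale. The worth of 1 read was taken from the steps of low values, and 71.7 to 76.8% of values were whole reads within 0.02, so no count test was run. Read numbers are CPM divided by that worth. Counting intervals (95%) of ratios within a line cover counting error only, and the 95% intervals of fitted changes are those of limma.

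The 14294 genes that averaged 1 CPM or more entered limma (version 3.58.1 in R 4.3.3), fitted to log2(CPM + 1) with a trend of variance on level, two-sided, with Benjamini-Hochberg adjustment and a threshold of 0.05. This scale understates changes of low genes. The knock-down model had the cell line as block, since the labels pair the libraries by cell line. Deviations from the group means correlated at 0.948 to 0.967 within a line and -0.505 to -0.467 between lines. Subtracting the mean of the lines by itself makes correlations between lines negative, so these values are no test of the pairing. The level model had the cell lines and the siPOOL as terms. Loci and canonical transcripts are from GENCODE v44 on hg38, and microRNAs from RefSeq.

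All 10 genes, the targeted gene, and of each gene list those past the threshold and up to 4 with the largest change were named, with the 2 tested genes most like each lncRNA. CDKN2A, CDKN2B-AS1, MTAP, IFNE, IGF2, MEG8, DLK1, DIO3, RTL1, MYC, MYCN, E2F1, CDKN1A, IRX5, MKLN1, MIR503HG and MIR99AHG were named after their values were seen. The genes and lists were chosen with earlier results of these data known. Alternatives were another pseudocount and filter, 2 other scalings, no trend, no block, a paired statistic of each gene alone, no siPOOL term, and each line or library left out. The scalings were median centring and a rescaling of each library to its summed listed CPM without the non-polyadenylated RNAs. A rescaling that also left out MALAT1 and NEAT1, and changes relative to the median, were added after the data were seen.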

Additional observations from a re-analysis of the deposited data

Results flagged for a closer look

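In 7 of the 10 genes the siPOOL pairs of different cell lines went opposite ways. Of all tested genes, 11.4% were higher and 28.1% were lower in all 3 lines, so the lack of a common direction was frequent there too. In 4 of the 7 lncRNAs the counting interval was clear of 0 in both directions, which it was not for MIR31HG, CRNDE and H19. These intervals narrow with the number of reads, and the share of all tested genes that would meet this was not counted. The count therefore says nothing particular about the lncRNAs. Since each line has 1 library per siPOOL, these differences were not tested. The change of MIR22HG in U251 exceeded that in T98G by 0.654 (0.49 against -0.17, log2). For PVT1 the difference between U251 and T98G was 0.347 (0.17 against -0.17). For MEG3 it was 1.006 (0.33 against -0.67), the largest of the 4. For LINC-PINT the change in LN-229 exceeded that in T98G by 0.423 (0.21 against -0.21). Relative to the median change of all genes in T98G, the T98G values were 0.03 for MIR22HG, 0.02 for PVT1, -0.02 for LINC-PINT and -0.48 for MEG3. The rescaling without non-polyadenylated RNA gave T98G values of 0.04, 0.02, 0.00 and -0.49 in the same order.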

How the results depend on the processing

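None of the 8 tested lncRNAs passed the knock-down threshold under any alternative, with the adjusted p of MALAT1 between 0.05591 (no trend) and 1 and that of NEAT1 between 0.07709 (no trend) and 1. The number of genes called (286 of 14294; 59 higher, 227 lower) was 683 with a pseudocount of 0.1, 607 with a filter of 5 CPM, 185 with no trend, 41 with median centring (15 higher, 26 lower) and 14 with either rescaling (5 higher, 9 lower). It was 0 with no filter, 0 with the paired statistic of each gene alone and 0 with no replicate block (2540, 896 and 29 at an unadjusted p under 0.05). Leaving out each line gave 0 (without T98G) to 270. The fall of HOTAIRM1 kept its direction in the 11 alternatives that tested it (not the filter of 5 CPM), but its call was lost with no filter, centring, rescaling, no block, the paired statistic, and without LN-229 or T98G.

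Leaving out 1 line turned the sign of small changes, which ranged from -0.0805 to 0.246 for MIR22HG, -0.0609 to 0.113 for PVT1, -0.337 to 0.166 for MEG3 and -0.0569 to 0.154 for LINC-PINT, and the added rescaling turned that of CRNDE (0.00932). For levels, leaving out 1 library gave 5107 to 8046 genes called between T98G and LN-229 (7851 with all libraries) and 5 to 8 of the lncRNAs, MALAT1, CRNDE and either PVT1 or LINC-PINT losing the call without either LN-229 or either T98G library. It turned differences that had not passed, with ranges of -0.221 to 0.348 for MIR22HG and -0.0133 to 0.274 for PVT1 (T98G minus U251) and -0.650 to 0.0757 for NEAT1 (U251 minus LN-229). With a filter of 5 CPM, 2 of the lncRNAs were called between T98G and U251, since CRNDE and MEG3 were no longer tested. With no filter, MALAT1 and CRNDE did not pass between T98G and LN-229 and H19 passed between T98G and U251. The cause of the other moves was not tested. Depth limits H19 in U251 (3 and 8 reads) and MIR31HG (38 to 65 reads).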
